A study of Homo sapiens with 7 samples.

Results

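These results concern 113 genes in Kasumi-1 cells that each had 5 or more regions of changed chromatin accessibility after knockdown of PHF19. Kasumi-1 is an acute myeloblastic leukaemia cell line. Open chromatin was profiled by ATAC-seq, in which a transposase cuts accessible DNA and tags it for sequencing, in 3 libraries with PHF19 shRNA (shPHF19) and 4 libraries with scrambled control shRNA (Control). All cells of both groups carried a lentiviral shRNA, were given puromycin at 2 µg per ml from 48 hours for at least 24 hours, and went into the assay at 10000 cells per library. The labels name 1 cell line, do not say how many shRNA sequences were used, and are silent on separate cultures. The spread behind the authors' p-values may therefore be technical.

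The deposited data are lists of regions that passed the authors' threshold, 8615 increased and 200 decreased in shPHF19. The genes were chosen by the number of listed regions assigned to them as the nearest gene, with both lists pooled. Of 5939 gene symbols with a listed region, 125 had 5 or more, and the rule left out 12 of these (4 named genes, 2 glutamate receptor genes, an axon guidance receptor gene and 5 noncoding loci), which leaves 113 genes, 1.90% of the symbols. They held 694 of the 8815 listed regions, or 7.87%. RefSeq lists 109 of them as protein-coding, 2 as long noncoding RNAs (CPEB2-DT and NR2F1-AS1) and GBA3 as a transcribed pseudogene, and LUZP6 had no match. Because the number of listed regions chose the genes, their folds, FDR values and group means come from the same contrast and are given as a description with no test. Every fold, FDR and group mean below is from the authors' deposited tables, which give no SD and no value per library, and the read depth is unknown here. A list of changed regions cannot be used to check the labelled cell type or the knockdown, and RNA and protein levels were not analysed here.

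PHF19 is a Polycomb-like protein, an accessory subunit of Polycomb repressive complex 2 (PRC2), the histone methyltransferase that keeps developmental genes silent. Polycomb-like proteins bind DNA that holds CG pairs, which are dense at many promoters. Accessible regions outside promoters, in introns and between genes, often hold enhancers. An enhancer can act on a gene other than the nearest one, so a region assigned to a gene by distance is a position and not a known target.

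Of the 694 regions, 692 were increased in shPHF19 and 2 were decreased. Among the 52675 regions that the deposited FDR values imply were tested, 16.4% were listed as increased and 0.380% as decreased, and since the number of listed regions chose the genes, nothing is read from the members' count against these shares. In 111 genes all regions were increased. The median log2 fold (shPHF19 over Control) over the 694 regions was 1.05, with quartiles of 0.95 and 1.23, and the median of the 7535 regions at the 5480 genes with 1 to 4 regions, under the same exclusions, was 0.95. The deposited log2 fold is smaller than the difference of the deposited log2 group means, which had a median of 1.64 over the 694 regions, so the reads given beside a fold imply a larger ratio than the fold itself. The authors' mean normalised read count had a median of 17.6 in shPHF19 and 5.74 in Control over the regions of the 113 genes, against 29.7 and 13.1 at the genes with 1 to 4 regions. The Control mean lay at the floor of 1 read in 7 of the 694 regions. Medians per gene lay close together, from a log2 fold of 0.78 at FHIT to 1.38 at POT1.

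**Figure D1:**
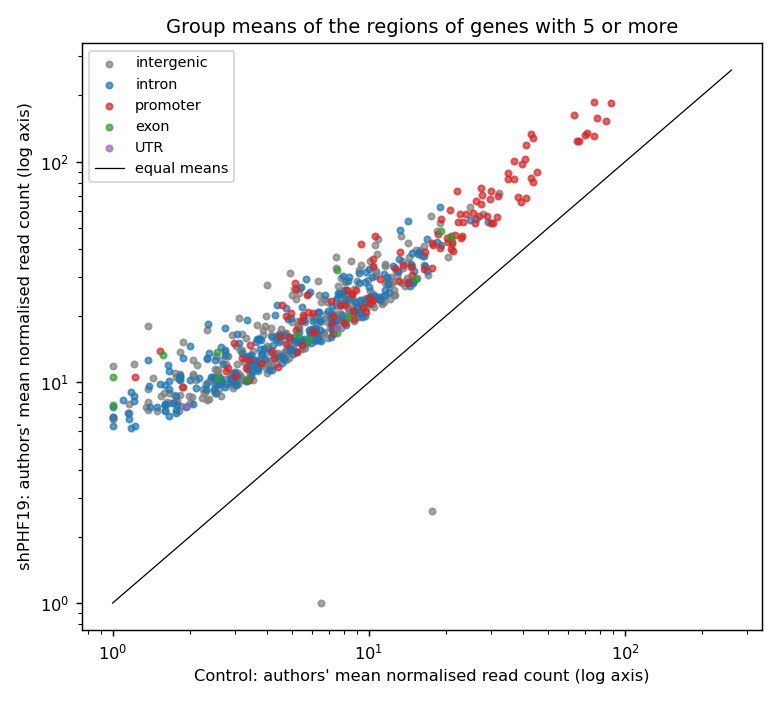
Authors' mean normalised read count of each of the 694 regions in shPHF19 (vertical log axis) against Control (horizontal log axis), coloured by annotation, with a line where both means are equal. All points lie above the line except 2 intergenic regions, and promoter regions (red) reach the highest means.

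The number of listed regions per gene had no gap at the threshold. With the same exclusions, 4007 genes had 1 listed region, 1023 had 2, 318 had 3 and 132 had 4. Just outside the threshold, the 132 genes with 4 regions had a median log2 fold of 1.02, 25.6% of regions at promoters and a median deposited transcript length of 44.7 kb. Just inside it, the 55 genes with 5 regions had a median log2 fold of 1.07, 21.1% of regions at promoters and a median transcript length of 129 kb. The remaining 58 genes had 6 to 10 regions. Below the threshold, transcript length did not rise evenly with the count. Its medians were 27.1, 47.4, 65.9 and 44.7 kb at genes with 1, 2, 3 and 4 regions.

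Regions of the 113 genes lay mostly away from promoters. Intergenic positions held 320 regions (46.1%), introns 231 (33.3%), promoters within 3 kb of a transcription start site (TSS) 127 (18.3%), exons 14 and untranslated regions 2. At the genes with 1 to 4 regions, 55.2% of regions were promoter regions, 18.9% were intronic and 23.1% were intergenic. The promoter share was 67.0% at genes with 1 region, 49.1% with 2, 34.9% with 3 and 25.6% with 4. A gene has few start sites and can hold many distal regions, so the count that chose the genes bears on this share, and its part was not tested. Distance to a TSS had a median of 70.4 kb at the 113 genes and 0.593 kb at the genes with 1 to 4 regions. The median was 0 kb at genes with 1 region, 4.16 kb with 2, 20.9 kb with 3 and 38.9 kb with 4. Distance thus also rose with the count below the threshold. The share of regions beyond 100 kb was 12.1% at genes with 1 to 4 regions and 32.6% at those with 4. At the 113 genes, 286 regions (41.2%) lay beyond 100 kb, 32 of them beyond 1000 kb. Promoter regions were still present at most of the genes: 78 had at least 1 and 35 had none. Of the 78, 43 had 1, 23 had 2, 10 had 3, and PRKAG2 and APP had 4.

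**Figure D2:**
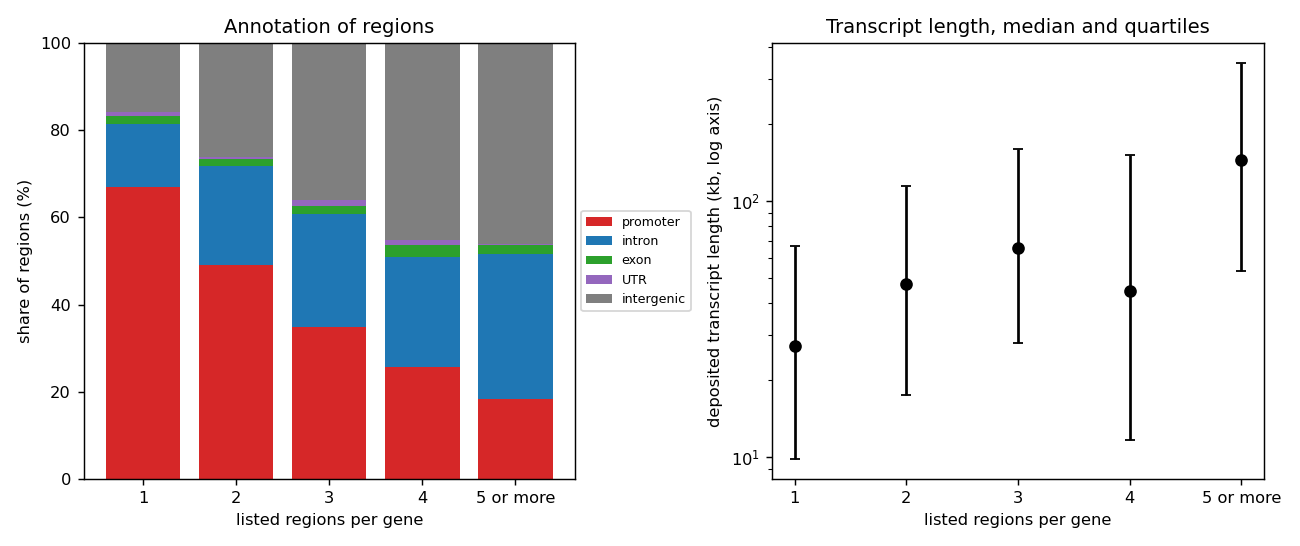
Left, share of regions in each annotation class (stacked bars, percent) for genes with 1, 2, 3, 4 and 5 or more listed regions. Right, deposited length of the longest assigned transcript of the same genes (median point, quartile bars, log axis), with a median of 27.1 kb at 1 region and 144 kb at 5 or more.

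The transcripts assigned to these genes were long. The longest transcript that the authors' annotation assigned to each had a median length of 144 kb (quartiles 53.1 and 345 kb), against 31.9 kb (11.3 and 81.2 kb) at the genes with 1 to 4 regions. Transcripts over 100 kb were found at 69 of the 113 genes (61.1%) and at 1113 of the 5480 (20.3%). A gene with more regions can be assigned more transcripts from which the longest is taken. The count that chose the genes therefore bears on these lengths, and its part was not tested. The longest were those of CNTNAP2 (2305 kb), DLG2 (2172 kb), FHIT (1502 kb), CCSER1 (1475 kb) and GALNTL6 (1227 kb). Short assigned transcripts were also present, and such a transcript need not cover the whole gene. MDFIC (0.812 kb, a short annotated transcript), HTR1B (1.17 kb), POM121L12 (1.27 kb) and PNRC1 (4.45 kb) were among those with the shortest transcripts. From the first to the last region of a gene the span had a median of 430 kb, with quartiles of 257 and 754 kb. It exceeded the transcript in 88 genes and 1000 kb in 18.

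**Figure D3:**
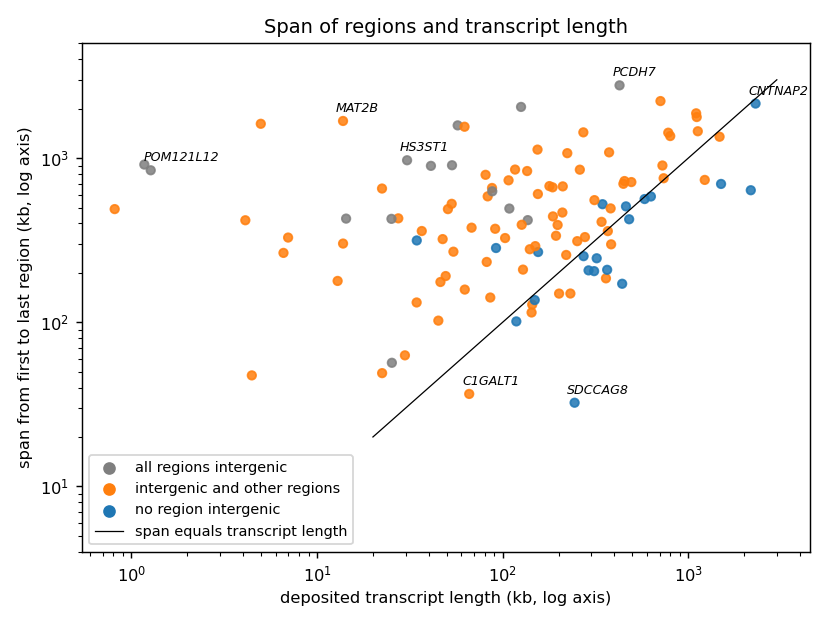
Span from the first to the last listed region (vertical log axis, kb) against deposited transcript length (horizontal log axis, kb) for each of the 113 genes, with a line where both are equal. All genes whose regions are all intergenic (grey) lie above the line, and most genes with no intergenic region (blue) lie near or below it.

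Neighbouring regions of the same gene were separated by a median of 46.9 kb (quartiles 10.6 and 146 kb, 581 gaps). Gaps were under 1 kb in 58 cases and over 100 kb in 191. Where regions less than 10 kb apart are counted as 1, 68 of the 113 genes still have 5 or more, and where those less than 100 kb apart are counted as 1, 9 do. These 9 were GBE1, HACE1, MAT2B, PCDH7, PDCD6IP, PDE4D, POM121L12, SPRY2 and SUGCT. In 24 genes all regions joined into 1 run at 100 kb.

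Adjacent listed regions can be parts of 1 accessible stretch. DAP, a death-associated protein gene on chromosome 5, had 3 intronic regions between 10681360 and 10682700, with log2 folds of 1.36, 1.58 and 1.19. The median width was 401 bp over the 694 regions, and 662 had exactly this width.

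Sorted by arrangement, 14 genes had intergenic regions alone, 20 had no intergenic region, 63 had both with at least 1 at a promoter and 16 had both without a promoter region. Median spans were 870 kb for the genes with intergenic regions alone and 276 kb for those without one. Median log2 folds differed little, at 1.04, 1.05, 1.07 and 1.04 for the 4 arrangements in that order.

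HS3ST1, which encodes a heparan sulfate sulfotransferase, had 10 regions, all intergenic and all upstream of its TSS. Near the gene, at 10.9, 42.7, 51.8 and 68.6 kb, authors' means were 11.5, 22.1, 52.5 and 8.71 reads in shPHF19 and 3.42, 7.47, 18.9 and 2.64 in Control, with log2 folds of 0.93 to 1.23. Farther out, 3 regions lay at 682, 689 and 698 kb. The outermost of these 3 (chromosome 4, 12128081 to 12128481) had the largest log2 fold of all 694 regions, 2.09, with 31.4 reads in shPHF19 and 4.93 in Control (authors' FDR 8.45e-07). The other regions had folds between 0.92 and 1.74, and no listed region lay at the promoter.

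HACE1, a HECT-type ubiquitin ligase gene on chromosome 6, likewise had 10 intergenic regions. They ran from 79.8 to 1662 kb downstream of the TSS. The largest log2 folds were 1.65 at 367 kb (42.0 reads in shPHF19, 10.6 in Control), 1.48 at 79.8 kb (56.6 and 17.5) and 1.41 at 1662 kb (27.3 and 7.54). The remaining 7 had folds of 0.87 to 1.15. POM121L12 had 8 intergenic regions on both sides of its short transcript, from 528 kb upstream to 315 kb downstream, with log2 folds of 0.92 to 1.27. It belongs to the POM121 family of similar sequences.

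MAT2B, the regulatory subunit of methionine adenosyltransferase, had 1 promoter region among its 10. That promoter region had the highest means of the gene, 67.7 reads in shPHF19 and 29.8 in Control (log2 fold 1.05). The other 9 ran downstream to 1671 kb, and the largest folds were 1.69 at 398 kb and 1.57 at 1671 kb.

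Other genes carried most of their regions in introns and at promoters. AKAP13 encodes an A-kinase anchoring protein. Its 10 regions on chromosome 15 comprised 6 intronic, 3 at promoters of alternative starts and 1 intergenic, from 85874223 to 86233335. Authors' means were 9.56 to 30.0 reads in shPHF19 and 1.88 to 14.2 in Control. The largest log2 fold was 1.59 in an intron 32.9 kb from a TSS, and the smallest was 0.81 at a promoter. FNDC3B, a fibronectin type III domain gene, had 10 regions within 185 kb. A region 63.8 kb upstream of its TSS had the largest log2 fold, 1.80, with 36.8 reads in shPHF19 and 7.44 in Control, and 2 regions over annotated starts had 0.82 and 0.74. A promoter region at another start had 1.32.

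PDE4D, the phosphodiesterase that degrades cyclic AMP, had 8 intronic regions, 1 promoter region and 1 intergenic region over 1363 kb. Its largest log2 fold was at the promoter of an alternative start, 1.39, with 33.7 reads in shPHF19 and 10.4 in Control. Its intronic regions rested on 7.71 to 17.4 reads in shPHF19 and 1.18 to 7.25 in Control. DLG2, a synaptic scaffold of the membrane-associated guanylate kinase family, had 9 regions, all intronic, with log2 folds of 0.99 to 1.73 and means of 8.64 to 27.1 reads in shPHF19 and 1.21 to 9.87 in Control.

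**Figure D4:**
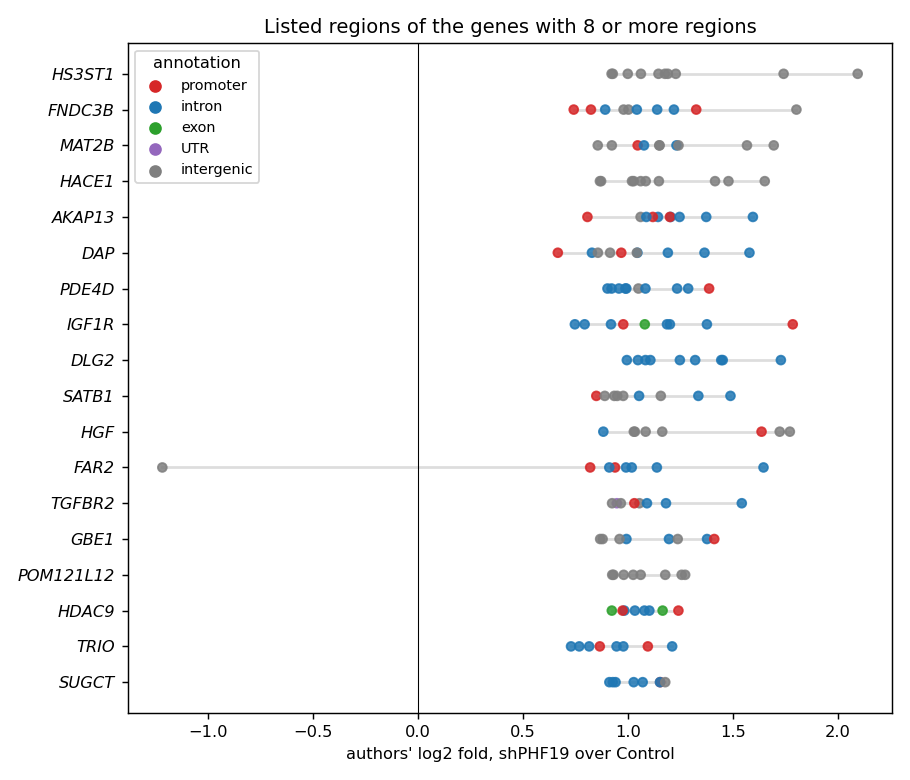
Authors' log2 fold (shPHF19 over Control) of each listed region of the 18 genes with 8 or more regions, coloured by annotation, with a grey line over each gene's range. Every fold lies above 0.6 except that of the decreased intergenic region of FAR2 at -1.22.

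Decreased regions occurred at a pair of genes. At PCDH7, a protocadherin gene, an intergenic region 894 kb downstream of the TSS (chromosome 4, 31615556 to 31615956) had 2.62 reads in shPHF19 and 17.6 in Control, a log2 fold of -1.59 (authors' FDR 0.000961). The other 6 regions of PCDH7 were increased, with log2 folds of 0.76 to 1.26, and the next one downstream lay 1264 kb from the TSS. At FAR2, a fatty acyl-CoA reductase gene, a region 347 kb upstream lay at the floor of 1 read in shPHF19 and had 6.52 in Control, a log2 fold of -1.22. The 7 increased regions of FAR2 lay from its promoter to its introns, with folds of 0.82 to 1.65.

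Promoter and distal regions of the 113 genes had similar median deposited folds and different read counts. Promoter regions had a median log2 fold of 1.05, intronic regions 1.08 and intergenic regions 1.05. Authors' means had medians of 36.0 reads in shPHF19 and 14.6 in Control at promoters, 15.7 and 4.74 in introns, and 16.5 and 5.14 between genes. These medians stand in a smaller ratio at promoters than in introns or between genes, so the similarity holds for the deposited fold only. Of promoter regions 67.7% had an FDR of at most 0.01, against 41.1% of intronic and 43.1% of intergenic regions. The genes with 1 to 4 regions had the same order, at 53.5%, 34.0% and 36.9%, so it is not particular to the 113 genes. At the genes with 1 to 4 regions, promoter regions had a lower median log2 fold, 0.88, with 48 reads in shPHF19 and 23.1 in Control, and the intronic and intergenic medians were both 1.01. The part of read level in the difference between both sets of promoters was not tested.

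Promoter windows of a few genes are shown for the CG pairs that Polycomb-like proteins can bind, which are in capitals. PRKAG2 and APP had the most promoter regions, ZNF800 had the largest promoter fold of the 113 genes, and HS3ST1 and POM121L12 had many regions and none at a promoter. Each window is a RefSeq sequence of 300 bases, 250 before and 50 after a start, from GRCh38.p14, written 5′ to 3′ along the gene. PRKAG2 has 5 such windows and APP has 2, and the one with the most CG pairs is printed. The deposited regions are on another build, so their positions within these windows were not compared.
PRKAG2 (GRCh38.p14 chr7:151632184-151632483, minus strand): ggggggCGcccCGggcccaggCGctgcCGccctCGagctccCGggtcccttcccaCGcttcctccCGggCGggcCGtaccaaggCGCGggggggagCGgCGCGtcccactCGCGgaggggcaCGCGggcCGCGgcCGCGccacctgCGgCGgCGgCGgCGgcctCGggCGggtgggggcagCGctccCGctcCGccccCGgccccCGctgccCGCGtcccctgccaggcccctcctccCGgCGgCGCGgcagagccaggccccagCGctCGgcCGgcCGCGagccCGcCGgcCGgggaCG
APP (GRCh38.p14 chr21:26170721-26171020, minus strand): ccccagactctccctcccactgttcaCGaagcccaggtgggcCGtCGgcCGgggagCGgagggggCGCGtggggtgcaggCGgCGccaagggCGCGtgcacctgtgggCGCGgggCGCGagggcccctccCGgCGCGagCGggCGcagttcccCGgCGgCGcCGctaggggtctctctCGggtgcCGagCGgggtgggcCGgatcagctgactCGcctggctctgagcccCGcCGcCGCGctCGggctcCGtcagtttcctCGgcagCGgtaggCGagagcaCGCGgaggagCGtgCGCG
ZNF800 (GRCh38.p14 chr7:127392659-127392958, minus strand): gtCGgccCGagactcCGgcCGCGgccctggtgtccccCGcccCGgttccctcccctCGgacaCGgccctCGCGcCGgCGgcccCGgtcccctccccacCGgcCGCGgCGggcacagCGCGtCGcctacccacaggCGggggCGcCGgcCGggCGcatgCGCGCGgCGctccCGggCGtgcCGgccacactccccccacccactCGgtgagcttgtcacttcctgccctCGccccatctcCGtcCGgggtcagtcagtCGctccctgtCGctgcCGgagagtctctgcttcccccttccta
HS3ST1 (GRCh38.p14 chr4:11428845-11429144, minus strand): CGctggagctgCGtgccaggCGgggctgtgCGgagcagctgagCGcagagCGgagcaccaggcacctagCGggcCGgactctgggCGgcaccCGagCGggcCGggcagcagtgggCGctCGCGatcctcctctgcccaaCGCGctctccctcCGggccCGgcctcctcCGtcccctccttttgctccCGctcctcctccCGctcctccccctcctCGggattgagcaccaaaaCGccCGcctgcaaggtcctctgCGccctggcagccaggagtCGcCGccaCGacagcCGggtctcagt
POM121L12 (GRCh38.p14 chr7:53035383-53035682, plus strand): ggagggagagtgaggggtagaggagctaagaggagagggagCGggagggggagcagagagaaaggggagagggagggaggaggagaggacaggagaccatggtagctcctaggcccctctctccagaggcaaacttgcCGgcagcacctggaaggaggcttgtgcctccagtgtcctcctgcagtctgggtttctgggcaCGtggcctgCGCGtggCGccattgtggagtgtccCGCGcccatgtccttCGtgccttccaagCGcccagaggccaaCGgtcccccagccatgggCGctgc

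The windows held 50 CG pairs for PRKAG2, 43 for APP, 40 for ZNF800, 30 for HS3ST1 and 12 for POM121L12. A window was found for 96 of the 113 genes, and the richest window per gene had a median of 29 CG pairs, against 16 over 27305 RefSeq genes of all types. At least 20 pairs were held by 70 of the 96 (72.9%) and by 44.7% of all, and at least 1 by 96.2% of all. The 27305 genes include noncoding ones, whereas 109 of the 113 are protein-coding. A gene with more windows also has more from which the richest is taken. The part of gene type and of window number in these differences was not tested. No value is given for genes with fewer listed regions, so the differences are not read as particular to the 113 genes. The motif searched was CG, which reads the same on both strands. Genes with a promoter region had a median of 30 pairs (69 genes) and genes without one a median of 22 (27 genes).

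PRKAG2, the gamma subunit of the energy sensor AMP-activated kinase, had promoter regions at several starts. Authors' means of the 4 promoter regions were 43.2, 18.6, 17.2 and 22.5 reads in shPHF19 and 20.3, 8.09, 5.20 and 8.08 in Control, with log2 folds of 0.91, 0.85, 1.17 and 1.11. APP, the amyloid precursor protein gene, had 3 promoter regions next to each other, with log2 folds of 1.26, 1.27 and 1.09 and means of 16.1, 20.7 and 57.9 reads in shPHF19, against 4.49, 5.80 and 24.0 in Control. The promoter region at another start had a fold of 0.92, and an intronic region had a Control mean at the floor (6.35 reads in shPHF19).

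ZNF800, a zinc finger gene, had 5 regions within 49.0 kb of chromosome 7. A region over one of its annotated starts (127032035 to 127032435) had 28.1 reads in shPHF19 and 5.14 in Control, a log2 fold of 1.80 (authors' FDR 1.87e-05). The other promoter region, over the start of a longer transcript, had 40.6 reads in shPHF19 and 19.0 in Control and a fold of 0.91. SLC39A10, a zinc transporter gene, had 3 promoter regions and a largest promoter fold of 1.80 as well.

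Transcription and chromatin genes made up 17 of the 113, with 99 regions and a median log2 fold of 1.07. The grouping by role was made by hand after the members were known. SATB1, a chromatin organiser of lymphoid cells, had 9 regions. An intronic region 216 kb from its TSS had 62.2 reads in shPHF19 and 19.0 in Control (log2 fold 1.49), while its promoter had 43.5 and 21.2 (0.85). That intron belongs to BALR6, an overlapping noncoding gene, as do those of 2 other SATB1 regions.

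ERG, an ETS transcription factor of blood stem cells and endothelium, had 5 regions, all intronic and none at a promoter. Its means were 33.7, 10.6, 12.7, 24.4 and 15.7 reads in shPHF19 and 16.5, 3.47, 3.93, 11.0 and 6.26 in Control, and its log2 folds ran from 0.82 to 1.05. FOXP1, a forkhead transcription factor, had 4 intronic and 3 promoter regions with folds of 0.74 to 1.15.

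LCORL, whose longer products include a PRC2 accessory subunit, was the one Polycomb gene among the 113. The region over its start had 134 reads in shPHF19 and 42.8 in Control, a log2 fold of 1.52 and the lowest FDR of its 7 regions (4.97e-10). HDAC9, a class IIa histone deacetylase gene, had 8 regions with folds of 0.92 to 1.24, and TLE4, a Groucho-type corepressor gene, had 6 with 0.72 to 1.41. NR2F2, an orphan nuclear receptor gene, had 5 intergenic regions with folds of 0.82 to 1.68. POT1, which protects telomere ends, had the highest median fold of the 113 genes, and its promoter had 119 reads in shPHF19 and 41.1 in Control (log2 fold 1.41). CDCA7L, a MYC-interacting factor gene, had its largest fold, 1.81, within an intron of DNAH11.

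Intracellular signalling genes numbered 15, with a median log2 fold of 1.01, and 51.6% of their 95 regions were intronic. CDK6, the cyclin-dependent kinase that drives the G1 phase, had 4 intronic, 2 promoter and 1 intergenic region. Its means ran from 9.41 to 45.0 reads in shPHF19 and from 2.12 to 20.2 in Control, and its log2 folds from 0.79 to 1.13. SPRY2, an inhibitor of receptor tyrosine kinase signalling, had a promoter region with 57.7 reads in shPHF19 and 22.7 in Control (log2 fold 1.14) and 4 intergenic regions out to 1326 kb. TRIO, a guanine nucleotide exchange factor gene, had 8 regions with folds of 0.73 to 1.21.

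Receptors, ligands and surface molecules numbered 16, with 98 regions and a median log2 fold of 1.09. IGF1R, the insulin-like growth factor receptor gene, had 9 regions. Its promoter region 0.934 kb upstream of the start had 46.1 reads in shPHF19 and 10.5 in Control (log2 fold 1.78, authors' FDR 6.33e-07), and the adjacent one at 1.83 kb had 69.6 and 32.0 reads (0.98). IL1RAP, the interleukin 1 receptor accessory protein that is displayed on leukaemic stem cells, had 7 regions within 115 kb, and each had an FDR of at most 0.01. Means over its start were 97.1 reads in shPHF19 and 39.7 in Control (log2 fold 1.17), and its largest fold, 1.69, was intronic. TGFBR2, the transforming growth factor beta receptor gene, had folds of 0.92 to 1.54 over 8 regions. CD200, an inhibitory ligand for myeloid cells, had 4 intergenic regions 45.9 to 62.4 kb from its TSS with folds of 1.09 to 1.62, above the 0.90 of its promoter. HGF, the ligand of the MET receptor, had 8 regions with folds of 0.88 to 1.77.

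Adhesion, synapse and cytoskeleton genes numbered 12 and were the longest group, with a median transcript of 601 kb. Only 3 of their 73 regions (4.11%) were at promoters. A list of 60 cadherin, contactin and other neural adhesion genes held 8 of the 113 genes (13.3% of the list), among them CDH6, CDH18, CNTNAP2, EPHA3, PCDH7, SEMA3D and TENM2, and 44 of the 60 (73.3%) had at least 1 listed region. Of all 20056 protein-coding genes, 109 (0.543%) were among the 113 and 25.8% had a listed region. The list was drawn up with earlier results of these data known, and its genes are long, so the counts are a description. CDH18 had log2 folds of 0.99 to 1.41 over 1874 kb, CNTNAP2 0.94 to 1.64 over 2150 kb and TENM2 0.94 to 1.5 over 2226 kb. Their means lay between 9.87 and 71.9 reads in shPHF19 and between 1.37 and 32.3 in Control.

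Metabolism, glycosylation and transport genes numbered 16 with a median log2 fold of 1.05, protein turnover and sorting genes 8 with 1.03, and RNA and translation genes 6 with 1.03. Protein turnover genes had the highest intergenic share (74.5%), of which HACE1 and PDCD6IP, a sorting adaptor gene with 7 intergenic regions, held a large part. C1GALT1, which builds the core of O-linked glycans, had 5 regions within 36.6 kb, among the shortest spans. Its start had 83.5 reads in shPHF19 and 36.8 in Control (log2 fold 1.07). The shortest span, 32.3 kb, was that of the centrosomal gene SDCCAG8, with 103 reads in shPHF19 and 40.8 in Control at its start (1.21).

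The nearest gene was not always the gene that held the region. Of 227 intronic or exonic regions with a named host gene, 18 lay in another gene, at 7 of the 113. All 5 regions of LRRN3, a leucine-rich repeat gene, lay in introns of IMMP2L, in which LRRN3 is nested. GALNT7 had 2 in GALNTL6, also one of the 113, and OTULINL had 2 in TRIO. CDCA7L had 2 in DNAH11, and TARS1 had 2 in ADAMTS12. LUZP6 shares its transcript with MTPN, so its 7 regions, with a largest log2 fold of 2.04 (18.1 reads in shPHF19, 1.37 in Control), cannot be told apart from those of MTPN. FRG1, on distal chromosome 4, has near-identical copies elsewhere in the genome, so the origin of its reads is uncertain. Its 7 regions had log2 folds of 0.93 to 2.07, and all had an FDR of at most 0.01.

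The genes were concentrated on a few chromosomes. Chromosome 7 held 28 (24.8%), against 9.25% of the genes with 1 to 4 regions. Its share was 7.91% at genes with 1 region, 10.8% with 2, 18.6% with 3 and 15.9% with 4. A raised share was thus also present just outside the threshold. Chromosomes 3, 4 and 5 held 18, 15 and 14 of them (15.9%, 13.3% and 12.4%), against 8.10%, 5.66% and 7.66%. Chromosome 1 held 1, SDCCAG8, against 7.72% of the genes with 1 to 4 regions, and chromosomes 16, 17, 18, 19, 20, 22 and X held none. Median log2 folds were similar, 1.09 for regions on chromosome 7 and 1.01, 1.07 and 1.04 on chromosomes 3, 4 and 5. The number of tested regions per chromosome and the copy number of each chromosome were not analysed here, and their part in the distribution was not tested. On chromosome 15 all 7 members (AKAP13, SV2B, SLCO3A1, MCTP2, NR2F2, ARRDC4 and IGF1R) lay between 85.9 and 99.4 Mb. That stretch of 13.6 Mb, drawn from the first to the last region of these genes, held 111 of the 354 listed regions of the chromosome (31.4%). Of the 111, 49 were at these genes and lie in the stretch by construction.

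**Figure D5:**
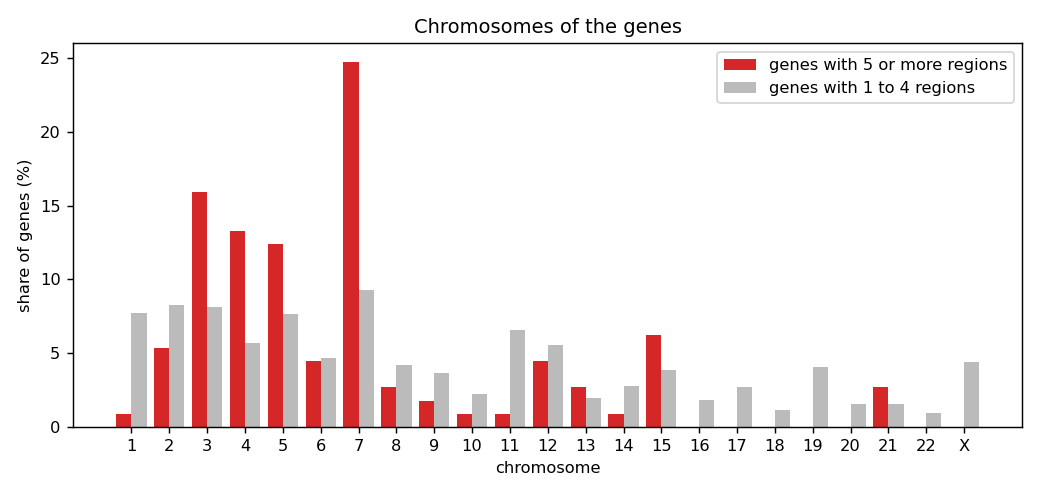
Share of genes (percent) on each chromosome for the 113 genes (red, left bar) and for genes with 1 to 4 listed regions (grey, right bar). Chromosome 7 holds 24.8% of the 113 genes and 9.25% of the others, among which it holds 15.9% of those with 4 regions.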

How the data were processed

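Chromatin accessibility was compared between 3 shPHF19 and 4 Control libraries. Per region, the deposited tables hold log2 mean normalised read counts (overall and by group), and the authors' log2 fold, p-value and FDR, with annotation, distance and transcript length in base pairs, per the file headers. Tools listed per the submitters' processing notes, with no role, are MACS2 2.2.6, deepTools 1.5.12, Bowtie2 2.4.1 and Picard 2.2.4. No source used here gives the normalisation, the test behind the folds, read shifting or region merging, and the balance of increases and decreases can depend on them. Both group columns were recognised by direction, and the overall mean equalled their mean weighted by 3 and 4 libraries (weight 0.429). The notes name hg38, but 0.228% of matched regions shared a gene start or end with GRCh38 and regions on 13 chromosomes lay beyond its last gene, so coordinates are as deposited (1-based) and are read as hg19.

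Regions were counted per symbol, with at least 5 required, in Python 3.11.15 (matplotlib 3.10.9, scipy 1.17.1, pandas 2.3.3 and numpy 2.4.6). Group means are printed as reads (2 to the power of the deposited log2 value, floored at 1). A span runs from the first to the last region. The number of tested regions is the commonest value of FDR times rank over p. No test was run, since the number of listed regions chose the genes. Members, lists, roles and rules were chosen with earlier results of these data known. Genes were named by rank of region number, fold, promoter regions, span, length and FDR, by a decreased region or by list, and the others after their values were seen. Counting was tested on simulated data. Alternatives changed the minimum, the merging of neighbours, read, fold and FDR limits and the gene assignment. Some genes are not reported here.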

Additional observations from a re-analysis of the deposited data

How the results depend on the processing

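No paired analysis was possible because the tables hold group means and no value per library, and no replicate could be left out for the same reason. Of 51 alternatives over 7 values, 27 kept the value within 1.5 times (counts) or within its 95% interval, and 24 moved it. The interval is a binomial one over the chosen regions or genes, counted as if independent. It holds no spread between libraries, and most alternatives reuse the same regions. It serves here only as a yardstick for the size of a shift. The number of genes was 245, 58 and 18 with a minimum of 4, 6 and 8 regions, 15 at an FDR of at most 0.01, 36 at a log2 fold of at least 1, 68 and 9 with neighbours under 10 and 100 kb merged, 36 within 100 kb of a TSS and 29 with at least 10 reads. The promoter share was 21.4% and 14.3% with a minimum of 4 and 8 regions, 14.4% at a log2 fold of at least 1 and 12.1% with neighbours under 10 kb merged. The median distance was 57.3 kb with a minimum of 4 and 54.5 kb at an FDR of at most 0.01. Median transcript length was 85.8 and 229 kb with a minimum of 4 and 8, and 82 kb at that FDR. The median log2 fold was 1.64 taken as the difference of the group means and 1.03 with at least 10 reads. Median span was 298 and 600 kb with a minimum of 4 and 8, and 175 kb within 100 kb of a TSS. The chromosome 7 share was 13.3% at that FDR. Counting regions for the gene that holds them, chosen after seeing the data, gave 124 genes, 108 of them among the 113. Fewer regions or genes enter most of these settings by construction. Beyond that, the cause was not tested. Low counts limit precision, since 45.0% of the 694 regions had an overall mean under 10 reads.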

Other observations

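Of the 12 lists of blood, signalling, adhesion, channel, Polycomb and marker genes, 3 held none of the 113 genes. Since 0.543% of all protein-coding genes were among the 113, nothing is read from a short list that held none. Myeloid differentiation markers had a listed region at 5 of 25 genes, erythroid and megakaryocyte markers at 2 of 22 (9.09%) and lymphoid markers at 4 of 26 (15.4%), against 25.8% of all protein-coding genes. Each of the other lists held 1 or 2 of the 113, apart from the adhesion list. ERG and FOXP1 came from 45 progenitor and leukaemia transcription factors, of which 21 had a listed region. The 12 symbols that the rule left out also had 5 or more regions and are not counted as members in any list. A list can therefore hold more genes with 5 or more regions than are given here. AKAP13 and PDE4D came from 38 cyclic AMP signalling genes, of which 23 had one. From the lists of surface receptors, signal attenuators, heparan sulfate enzymes, channels, Polycomb subunits and nuclear receptors came IL1RAP, SPRY2, HS3ST1, CACNA2D1, LCORL and NR2F2, 1 each. CACNA2D1, a calcium channel subunit gene, had 6 regions with log2 folds of 0.95 to 1.69.

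In 5 genes every region had an FDR of at most 0.01, among them FRG1, IL1RAP, MRPS30 and ZNF800. MRPS30, a mitochondrial ribosomal protein gene, had 132.7 reads in shPHF19 and 69.5 in Control at its highest region. In 107 of the 113 genes at least 1 region reached that FDR. Over single regions the share was 46.8% at the 113 genes and 45.5% at the genes with 1 to 4 regions. It was 45.1% over all listed regions with a symbol. A gene with 5 or more regions has more from which 1 can reach that FDR, so nothing is read from these gene counts.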
